A study of Mus musculus with 14 samples.

Results

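DKK-1 and WISP-1 are the members of the Wnt pathway that the array measured by name, and they were taken as the rows carrying those names, 2 of the 111 analytes on each membrane. DKK-1 is the product of Dkk1 (Entrez 13380), read at spot D13, and WISP-1 is the product of Ccn4 (Entrez 22402), read at spot J21. The proteins were measured in the serum of male C57BL/6JNarl mice 8 weeks old that carried a full-thickness wound on the back. Under NP, a negative pressure was applied to the dressed wound, with sampling after 0.5, 2 or 16 h. In the AP arm the wound lay under a wet dressing at atmospheric pressure, with sampling after the same times. AP 0 h, labelled as the control, is the baseline for both pressures, and no NP sample was taken at 0 h. Each of the 7 groups had 2 samples, 14 in all, and all mice were of the same strain and sex, so that the groups differed by pressure and time. Each group was also read on its own membranes, and a wet dressing is named only for AP. Effects of pressure, dressing and membrane thus cannot be told apart. For each membrane, portions of serum were combined, and a note with the series excepts AP 0 h from the repetition of experiments, yet 2 samples stand for it as for the other groups. The methods speak of independent experiments averaged for the array and of a few mice at each time, but no source assigns the samples of a group to particular mice or experiments, so that a p-value here reflects no more than the spread between the samples at hand, which can be technical. Blood stood for some time before it was spun.

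Wnt ligands signal by binding Frizzled receptors together with LRP5 or LRP6, which keeps beta-catenin from being degraded and lets it activate target genes. DKK-1 (dickkopf-1) is a secreted inhibitor that binds LRP5 and LRP6 and blocks this step, its gene is itself a target of beta-catenin, and in skin it is known as an inhibitor of hair follicle formation. Platelets also store DKK-1. WISP-1 (CCN4) is a secreted matricellular protein of the CCN family, found as a gene induced by Wnt-1 and known in connective tissue and wound repair. DKK-1 is thus both an inhibitor of the pathway and the product of a target gene of it, and WISP-1 is also the product of a target gene.

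The membranes differed in brightness between groups. The mean of the reference spots, which carry a fixed signal at 3 positions, was 165561 ± 3560 (SD, n = 2) at AP 0 h and from 18043 to 43803 in the means of the later groups. AP 0 h was thus 3.78 to 9.18 times as bright as the later groups. The normalized intensity deposited by the authors brings both samples of a group to a shared level but leaves the groups unscaled. Each result is therefore given on 2 scales, the normalized intensity and the raw intensity as a percentage of the mean reference spots of the same membrane. Within a group both scales have the same relative spread, and between groups they differ by a constant for all analytes. The rank of an analyte in a comparison and its side of the median are therefore the same on both scales by construction. The reference spots also differed within a membrane, with a ratio of brightest to dimmest position between 1.09 and 2.97. The negative control spot read 203 and 296 at AP 16 h and between 21 and 93 on the other 12 membranes.

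DKK-1 had the highest normalized intensity at AP 0 h, and its later course differed between the pressures. At AP 0 h the samples read 14246 and 14461. At 0.5 h DKK-1 read 8274 and 7457 in NP samples, against 4043 and 3712 in AP samples. At 2 h it read 2852 and 3170 in NP samples, against 9837 and 11124 in AP samples. Both NP samples were thus above both AP samples at 0.5 h, and both were below them at 2 h. At 16 h DKK-1 read 1651 and 1562 in NP samples, against 2598 and 2592 in AP samples, again with no overlap. The NP course was highest at 0.5 h and lower at each later time, and the AP course after 0 h was highest at 2 h.

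**Figure D1:**
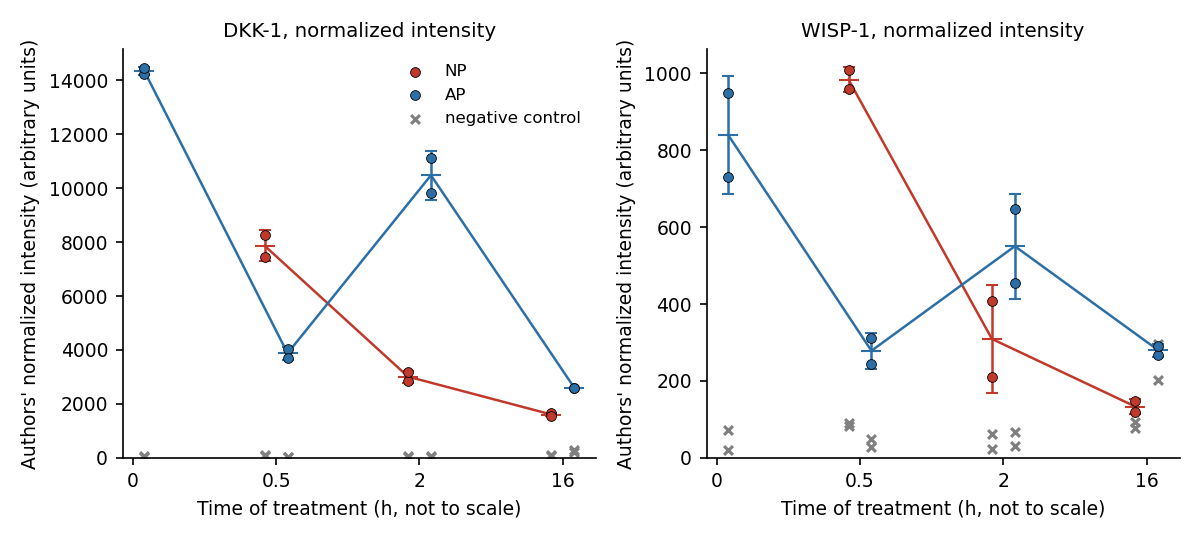
Normalized intensity (arbitrary units) of DKK-1 and WISP-1 by time of treatment, each point a sample, with lines through the group means, bars for the SD (n = 2) and crosses for the negative control of each membrane; the AP points at 0 h are the samples labelled as the control. Both proteins were highest at 0.5 h among NP groups and at 2 h among later AP groups, and WISP-1 lay near the negative control at 16 h.

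Relative to the reference spots, DKK-1 kept the same times of its highest level under each pressure, while AP 0 h moved to the lower end. It was 8.74% and 8.87% of the reference spots at AP 0 h. At 0.5 h it was 19.0% and 17.2% in NP samples, against 12.6% and 11.6% in AP samples. At 2 h it was 12.1% and 13.5% in NP samples, against 29.1% and 32.9% in AP samples. There the AP 2 h samples stood above all other samples. At 16 h DKK-1 was 9.19% and 8.70% in NP samples, against 10.3% and 10.2% in AP samples.

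WISP-1 gave a dim signal, ranked between 61 and 86 from the brightest of the 111 analytes, against ranks of 29 to 52 for DKK-1. At AP 0 h its normalized intensity was 949 and 731. At 0.5 h it was 1008 and 960 in NP samples, against 312 and 245 in AP samples. At 2 h it was 210.5 and 408 in NP samples, against 647 and 454 in AP samples. The NP samples at 2 h were the widest pair of any group, with a difference of 63.9% of their mean, but lay below both AP samples. At 16 h WISP-1 was 120 and 147 in NP samples, against 268 and 292 in AP samples. The higher of these AP readings was below the negative control of its own membrane, at 0.986 times its level, and the other was 1.33 times the negative control. The NP readings at 16 h were 1.29 and 1.92 times the negative control. At 16 h WISP-1 was thus close to the level of an empty spot in both pressures. At the other times it was between 3.40 and 35.9 times the negative control, and DKK-1 was between 8.76 and 710 times the negative control over all 14 samples.

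Relative to the reference spots, WISP-1 was lowest at AP 0 h, at 0.582% and 0.449%. At 0.5 h it was 2.32% and 2.21% in NP samples, against 0.9705% and 0.762% in AP samples. The NP 0.5 h samples were above all other samples on this scale. At 2 h WISP-1 was 0.896% and 1.74% in NP samples, against 1.91% and 1.34% in AP samples, and here the groups overlapped. At 16 h it was 0.668% and 0.817% in NP samples, against 1.06% and 1.15% in AP samples.

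**Figure D2:**
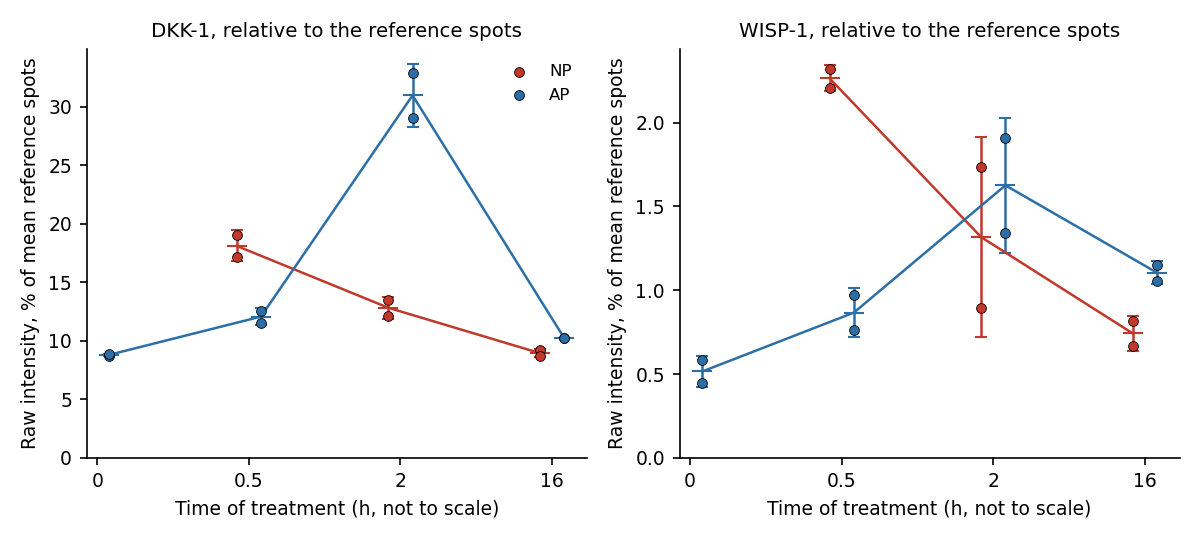
Raw intensity of DKK-1 and WISP-1 as a percentage of the mean reference spots of the same membrane, by time of treatment, each point a sample, with lines through the group means and bars for the SD (n = 2). DKK-1 stood highest in the AP 2 h samples at 29.1% and 32.9%, and WISP-1 in the NP 0.5 h samples at 2.32% and 2.21%.

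The comparison of NP with AP at the same time asks how the serum signal differed between the treatments, each read on its own membranes. It was tested with limma over all 14 samples, with p-values adjusted over the 111 analytes and a threshold of 0.05. The standard error on the log2 scale was 0.097 for DKK-1 and 0.34 for WISP-1 in every comparison of 2 groups, since all groups share an estimate of the spread. With 2 samples against 2, an exact permutation test of a single analyte cannot give a two-sided p below 0.333, so that none was used.

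At 0.5 h both proteins were higher under NP. On normalized intensity, DKK-1 was higher by 1.02 on the log2 scale, 2.03-fold (adjusted p = 1.08e-06), and WISP-1 by 1.83, 3.56-fold (adjusted p = 4.12e-04). Of all analytes 44.1% were called higher in this comparison, with a median difference of 0.42. From the highest difference, WISP-1 ranked 5 and DKK-1 ranked 14 of 111. Relative to the reference spots, DKK-1 was higher by 0.58, 1.50-fold (adjusted p = 1.76e-04), and WISP-1 by 1.40, 2.63-fold (adjusted p = 0.00432). On this scale 12.6% of the analytes were called higher, 21.6% were called lower, and the median difference was -0.02. After division by the median analyte of each membrane, the differences were 0.03 for DKK-1 (adjusted p = 0.915) and 0.84 for WISP-1 (adjusted p = 0.077), and neither passed the test. On that scale the median of all analytes was -0.58, with 3 called higher and 49 lower. These 3 scales shift all analytes of a comparison alike, so that both proteins stood above the median on each of them by construction.

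The WISP-1 difference at 0.5 h turned when the position of the spot entered the scaling. J21 lies in the corner that has no reference spot, and a plane through the 3 reference positions reached 0.263 times the mean reference level at this spot in AP 0.5 h samples and 0.952 times in NP 0.5 h samples. Scaled to this plane, WISP-1 was 2.45% and 2.31% in NP samples, against 3.40% and 3.17% in AP samples, a difference of -0.46 (adjusted p = 0.307). The value of the plane in that corner is an extrapolation, and whether the brightness of the membranes followed it there was not tested. At D13, within the reference positions, the plane was 0.972 and 0.877 times the mean in NP and AP samples at 0.5 h, and DKK-1 remained higher under NP by 0.44 (adjusted p = 0.00177).

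At 2 h DKK-1 was lower under NP on both scales, and WISP-1 only on normalized intensity. DKK-1 differed by -1.80 on normalized intensity, 0.287 times the AP level (adjusted p = 9.79e-11), and by -1.27 relative to the reference spots, 0.414 times (adjusted p = 1.21e-08). WISP-1 differed by -0.89 on normalized intensity (adjusted p = 0.0228), while relative to the reference spots the difference was -0.36, with a 95% interval of -1.09 to 0.37 (adjusted p = 0.346). The share of analytes called lower was 86.5% on normalized intensity and 63.1% relative to the reference spots, with medians of -1.23 and -0.70. DKK-1 ranked 77 of 111 from the highest difference and was below the median, while WISP-1 ranked 37 and was above it. WISP-1 was higher under NP by 0.99 after median scaling (adjusted p = 0.0321) and by 0.80 after quantile normalization (adjusted p = 0.0262), so that its direction at 2 h depended on the scaling, and DKK-1 differed by 0.08 after median scaling (adjusted p = 0.771), where the median of all analytes was 0.65. The WISP-1 call was also lost without AP 2 h replicate 1 (-0.63, adjusted p = 0.179) and when NP 2 h replicate 1 was left out (-0.41, adjusted p = 0.262).

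At 16 h both proteins were lower under NP on normalized intensity, and neither passed the test relative to the reference spots. DKK-1 differed by -0.69 on normalized intensity, 0.619 times the AP level (adjusted p = 1.32e-05), and WISP-1 by -1.08, 0.475 times (adjusted p = 0.0130). Of all analytes 52.3% were called lower, with a median of -0.52. Relative to the reference spots the differences were -0.20 for DKK-1, with an interval of -0.40 to 0.01 (adjusted p = 0.127), and -0.58 for WISP-1, with an interval of -1.31 to 0.15 (adjusted p = 0.204), beside 17.1% of the analytes called lower. WISP-1 differed by 0.76 after the negative control was subtracted (adjusted p = 0.446), but no direction can be read from this value. It rests on AP 16 h replicate 2, which was below its negative control and was set to the floor of 10. Without AP 16 h replicate 2 the WISP-1 difference on normalized intensity was -1.01 (adjusted p = 0.0707), and leaving out NP 16 h replicate 1 gave -0.93 (adjusted p = 0.0740).

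The steps between times compare groups under the same pressure. Mice were killed at each time, so that a rise or fall is a difference between separate mice on separate membranes. Under AP, DKK-1 rose between 0.5 and 2 h by 1.43 on normalized intensity, 2.70-fold (adjusted p = 1.11e-08), rank 8 of 111, and by 1.36 relative to the reference spots (adjusted p = 2.37e-08). WISP-1 rose in the same step by 0.97 (adjusted p = 0.0264) and by 0.90 relative to the reference spots (adjusted p = 0.0419), but by 0.09 scaled to the plane (adjusted p = 0.851), and it differed by -0.21 after median scaling (adjusted p = 0.648). The share of analytes called higher in this step was 39.6% on normalized intensity and 34.2% relative to the reference spots. Without AP 0.5 h replicate 2 or without AP 2 h replicate 1, the WISP-1 step was 0.80 (adjusted p = 0.157) or 0.72 (adjusted p = 0.200).

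Between 2 and 16 h under AP, DKK-1 fell to 0.248 times its 2 h level on normalized intensity (-2.01, adjusted p = 3.19e-11) and to 0.331 times relative to the reference spots (-1.59, adjusted p = 6.01e-10). It ranked 96 of 111, against medians of -0.47 and -0.05. WISP-1 differed by -0.95 (adjusted p = 0.0218) and by -0.54 relative to the reference spots (adjusted p = 0.184). Of all analytes 55% were called lower on normalized intensity and 39.6% relative to the reference spots. After median scaling both differences turned, to 0.31 for DKK-1 (adjusted p = 0.184) and 1.37 for WISP-1 (adjusted p = 0.00203), against a median of 1.85 for all analytes. The WISP-1 call on normalized intensity was lost without AP 2 h replicate 1 (-0.70, adjusted p = 0.165), without AP 16 h replicate 1 (-0.89, adjusted p = 0.0965) and without AP 16 h replicate 2 (-1.02, adjusted p = 0.0580).

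Under NP both proteins fell at each step on normalized intensity. Between 0.5 and 2 h DKK-1 differed by -1.39 on normalized intensity (adjusted p = 1.85e-09) and by -0.50 relative to the reference spots (adjusted p = 3.49e-04). In this step DKK-1 was itself the median analyte, at rank 56 of 111 on both scales, with 91% of the analytes called lower on normalized intensity and 51.4% relative to the reference spots. WISP-1 differed by -1.75 (adjusted p = 1.64e-04) and by -0.86 relative to the reference spots (adjusted p = 0.0329), and by 0.03 after quantile normalization (adjusted p = 0.953). After median scaling DKK-1 differed by 0.30 in this step (adjusted p = 0.239) and was, by construction, again the median analyte.

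In the last NP step both proteins lay below the median analyte, but WISP-1 ended at only 1.29 and 1.92 times the negative control. Between 2 and 16 h DKK-1 differed by -0.90 on normalized intensity (adjusted p = 5.93e-07) and by -0.52 relative to the reference spots (adjusted p = 1.90e-04), while the medians of all analytes were 0.17 and 0.56. DKK-1 ranked 97 and WISP-1 ranked 101 of 111. WISP-1 differed by -1.14 on normalized intensity (adjusted p = 0.00823) and by -0.76 relative to the reference spots (adjusted p = 0.0539). Of all analytes 25.2% were called lower on normalized intensity and 18.9% relative to the reference spots, against 37.8% and 58.6% called higher. Without NP 2 h replicate 2 the WISP-1 step was -0.67 (adjusted p = 0.099988), and without NP 16 h replicate 1 the value was -0.998 (adjusted p = 0.0533).

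**Figure D3:**
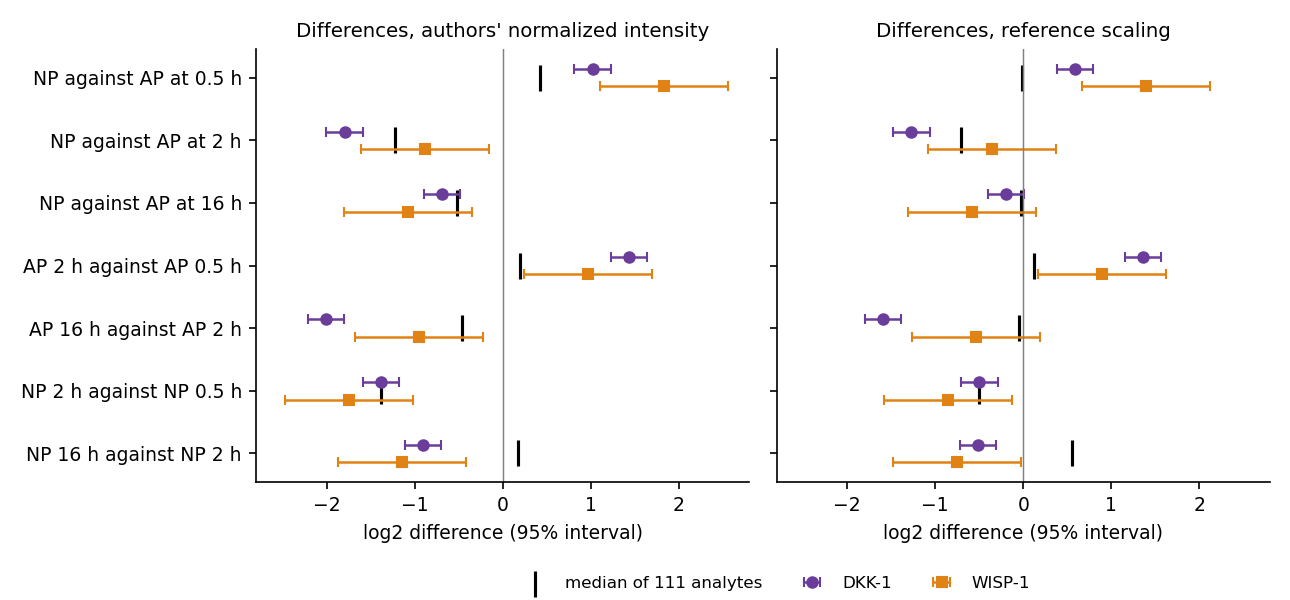
Log2 differences with 95% intervals for DKK-1 and WISP-1 between NP and AP at each time and between times within each pressure, on normalized intensity at the left and relative to the reference spots at the right, with the median of 111 analytes as a bar. DKK-1 was higher under NP at 0.5 h (1.02 and 0.58) and lower at 2 h (-1.80 and -1.27), but after median scaling these differences were 0.03 and 0.08, beside medians of -0.58 and 0.65 for all analytes.

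Whether the pressures differed in the steps themselves was tested as the difference of differences. From 0.5 to 2 h, the NP step minus the AP step was -2.82 for DKK-1 (SE 0.14, adjusted p = 9.13e-11) and -2.72 for WISP-1 (SE 0.48, adjusted p = 7.66e-05) on normalized intensity. On the reference scale it was -1.86 for DKK-1 (adjusted p = 3.86e-08) and -1.76 for WISP-1 (adjusted p = 0.00507). The share of analytes called lower was 84.7% and 57.7%, with medians of -1.69 and -0.73, and DKK-1 and WISP-1 ranked 90 and 89 of 111. Scaled to the plane, the values were -1.84 (adjusted p = 3.51e-08) and -1.46 (adjusted p = 0.0155). After median scaling they were 0.05 for DKK-1 (adjusted p = 0.879) and 0.15 for WISP-1 (adjusted p = 0.817), beside a median of 1.18 for all analytes. The sign of their values thus depended on the scaling, while median scaling leaves their place below the median analyte unchanged by construction.

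From 2 to 16 h the difference between the steps passed the test for DKK-1 but not for WISP-1. Whether DKK-1 and WISP-1 differed from each other in this was not tested. WISP-1 at 16 h was only 0.986 to 1.92 times the negative control. The NP step minus the AP step was 1.11 for DKK-1 (adjusted p = 3.63e-06) and -0.19 for WISP-1, with an interval of -1.22 to 0.84 (adjusted p = 0.727), on normalized intensity. On the reference scale the values were 1.08 for DKK-1 (adjusted p = 5.17e-06) and -0.22 for WISP-1 (adjusted p = 0.693). Of all analytes 51.4% were called higher on normalized intensity and 50.5% relative to the reference spots, with medians of 0.69 and 0.65. The DKK-1 value turned to -1.31 after median scaling (adjusted p = 3.00e-04, with a median of -1.74 for all analytes). The WISP-1 value was 1.30 scaled to the plane (adjusted p = 0.0232) and -1.91 after quantile normalization (adjusted p = 0.00100). With the negative control subtracted, the WISP-1 value was also positive. That value includes AP 16 h replicate 2, which was set to the floor, so that no direction can be read from it.

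**Figure D4:**
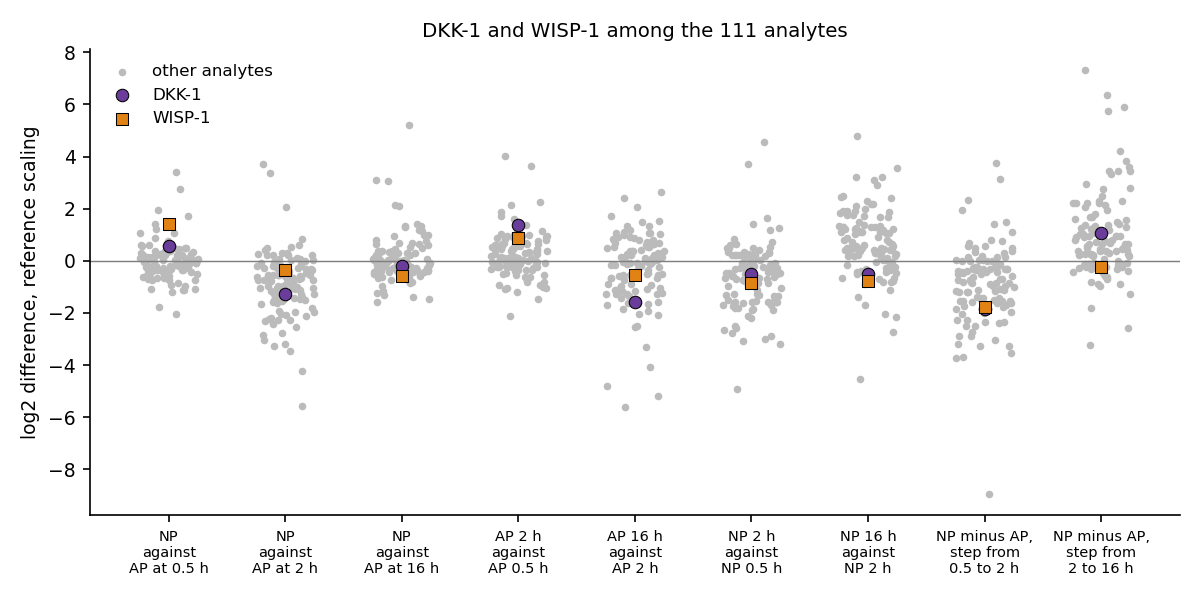
Log2 differences relative to the reference spots for the 111 analytes in 9 comparisons, with DKK-1 and WISP-1 marked and each grey point another analyte. In NP against AP at 0.5 h DKK-1 and WISP-1 lay above the median of -0.02. In the NP step minus the AP step from 0.5 to 2 h both lay below the median of -0.73. After median scaling their values in this difference of steps were 0.05 and 0.15, against a median of 1.18.

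The pattern of a highest NP level at 0.5 h and a highest later AP level at 2 h was shared with other analytes. On normalized intensity 47 of 111 analytes (42.3%) had it in their group means, and 33 (29.7%), DKK-1 and WISP-1 among them, had it with no overlap between the highest group and the others of its pressure. As a percentage of the reference spots, 18 analytes (16.2%) had it, 10 of them (9.01%) without overlap, again with DKK-1 and WISP-1 among them. Scaled to the plane 7 analytes (6.31%) had it without overlap, including DKK-1 but not WISP-1. After median scaling 2 of 111 had it, and neither was DKK-1 or WISP-1.

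The order of the 7 groups depended on the scale more for AP 0 h than for the later groups. DKK-1 on normalized intensity was highest at AP 0 h, then AP 2 h, NP 0.5 h, AP 0.5 h, NP 2 h, AP 16 h and NP 16 h, and no neighbours in this order overlapped. Set against the reference spots, the order was AP 2 h, NP 0.5 h, NP 2 h, AP 0.5 h, AP 16 h, NP 16 h and AP 0 h, where NP 2 h overlapped with AP 0.5 h and NP 16 h with AP 0 h. For WISP-1 on normalized intensity the order was NP 0.5 h, AP 0 h, AP 2 h, NP 2 h, AP 16 h, AP 0.5 h and NP 16 h, and NP 2 h, AP 16 h and AP 0.5 h were not separated. As a percentage of the reference spots it was NP 0.5 h, AP 2 h, NP 2 h, AP 16 h, AP 0.5 h, NP 16 h and AP 0 h, with overlaps from AP 2 h down to AP 16 h and between AP 0.5 h and NP 16 h.

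Against AP 0 h, the direction for both proteins turned with the scale. On normalized intensity DKK-1 was lower in all 6 later groups, with differences of -1.89, -0.46 and -2.47 at AP 0.5, 2 and 16 h and of -0.87, -2.26 and -3.16 at NP 0.5, 2 and 16 h (limma, adjusted p between 1.35e-14 and 5.41e-04). The share of analytes called lower was 62.2%, 57.7% and 71.2% in the AP groups and 55%, 91% and 76.6% in the NP groups. Set against the reference spots, DKK-1 was higher in 5 of the 6 groups, by 0.45, 1.81 and 0.22 in AP and by 1.04 and 0.54 at NP 0.5 and 2 h, and differed by 0.02 at NP 16 h (interval -0.18 to 0.23, adjusted p = 0.844). On this scale 87.4%, 86.5% and 86.5% of the analytes were called higher in the AP groups and 84.7%, 62.2% and 82% in the NP groups. The DKK-1 difference was below the median of all analytes in 5 of the 6 groups on both scales, by the most at NP 16 h, where the median was 1.43 relative to the reference spots. The exception was AP 2 h, where it was above the median of 1.34.

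WISP-1 was lower than at AP 0 h on normalized intensity in 4 of the 6 groups, with differences of -1.59 and -1.58 at AP 0.5 and 16 h and of -1.51 and -2.65 at NP 2 and 16 h. It differed by -0.62 at AP 2 h (adjusted p = 0.108) and by 0.24 at NP 0.5 h (adjusted p = 0.537). Set against the reference spots, it was higher in 5 of the 6 groups, by 0.75, 1.65 and 1.11 in AP and by 2.15 and 1.29 at NP 0.5 and 2 h, and differed by 0.53 at NP 16 h (adjusted p = 0.152). No direction against AP 0 h can thus be given for either protein without the choice of a scale.

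The ratio of DKK-1 to WISP-1 on the same membrane does not depend on a factor shared by the whole membrane. It is a ratio of the signals of 2 antibody pairs and not of amounts of protein. At 0.5 h it was 8.21 and 7.77 in NP samples, against 12.96 and 15.2 in AP samples, without overlap. At 2 h it was 13.5 and 7.77 in NP samples, against 15.2 and 24.5 in AP samples. The NP means were lower at both times, at 7.99 ± 0.314 against 14.1 ± 1.55 and at 10.7 ± 4.09 against 19.9 ± 6.57 (SD, n = 2). At 16 h the order was the other way, with 13.8 and 10.6 in NP samples, against 9.70 and 8.88 in AP samples, and AP 0 h stood at 15.0 and 19.8. The choice of scaling by position changed this ratio, and scaled to the plane its mean was 7.82 in NP samples, against 4.19 in AP samples, at 0.5 h and 15.6 in NP samples, against 10.6 in AP samples, at 2 h. The samples at 2 h overlapped on the plane, with 20.5 and 10.7 in NP and 7.87 and 13.4 in AP. They also overlapped with the negative control subtracted, at 18.8 and 8.19 in NP and 16.8 and 26.2 in AP. With the negative control subtracted, the ratio at 16 h was 57.7 and 21.1 in NP samples, against 36.1 in AP 16 h replicate 1, and no ratio is given for AP 16 h replicate 2, where WISP-1 was below the negative control. The order at 2 h and at 16 h was thus not kept after subtraction.

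**Figure D5:**
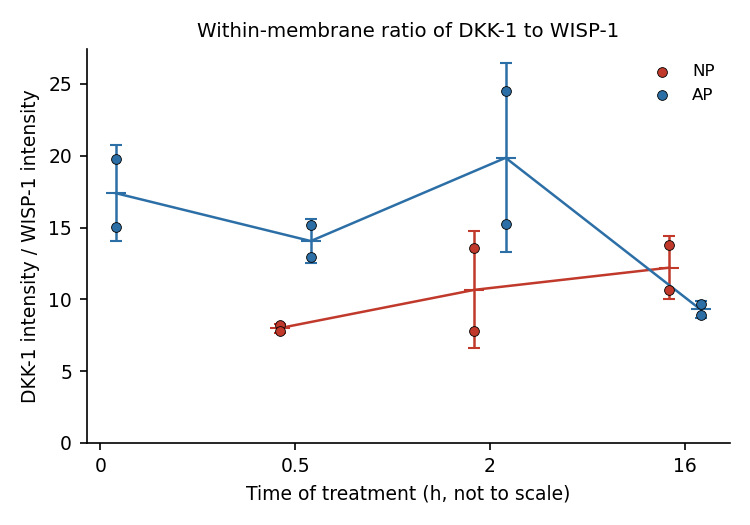
Ratio of the DKK-1 to the WISP-1 intensity on the same membrane by time of treatment, each point a sample, with lines through the group means and bars for the SD (n = 2). The NP samples lay below the AP samples at 0.5 and 2 h and above them at 16 h, but the order was not kept at 0.5 and 2 h scaled to the plane. It was also not kept at 2 and 16 h after subtraction of the negative control, to which WISP-1 was close at 16 h.

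The analytes whose levels moved most like the Wnt proteins were found by Pearson's r over the 14 samples on the log2 reference scale, given as a description because the samples share membranes and groups. For DKK-1 the highest r were those of IL-4, a cytokine of type 2 immunity (0.903), RAGE, a receptor that has soluble forms (0.876), and FGF acidic, a fibroblast growth factor (0.824), while the median over the other 110 analytes was 0.342. For WISP-1 they were Pref-1, a Notch-related protein that restrains fat cell formation (0.814), LDL R, the receptor that takes up low-density lipoprotein (0.801), and FGF acidic (0.761), with a median of 0.395. On normalized intensity, where all analytes share the brightness of the membranes, the r to DKK-1 was 0.972 for IL-4, 0.775 for RAGE and 0.505 for FGF acidic, with a median of 0.657, and the r to WISP-1 was 0.883 for Pref-1, 0.903 for LDL R and 0.510 for FGF acidic, with a median of 0.597. FGF acidic was thus below the median for both proteins on that scale. The r between DKK-1 and WISP-1 on the reference scale was 0.728, rank 4 for WISP-1 and rank 10 for DKK-1. RAGE had a steeper course than DKK-1 and reached 15.4% of the reference spots at NP 0.5 h and 23.9% at AP 2 h, with group means between 0.576% and 1.48% elsewhere. FGF acidic reached 7.67% at NP 0.5 h and 11.1% at AP 2 h, with group means of 0.146% to 3.64% elsewhere. RAGE and FGF acidic were above the negative control in 0 of 2 samples at AP 16 h.

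The other analytes with known links to Wnt signaling were 7 in number. They were PEDF (Serpin F1), which binds LRP6, periostin, a matricellular protein that binds Wnt ligands, osteoprotegerin, VEGF, osteopontin, MMP-2 and MMP-9, genes of which several are known beta-catenin targets. At 0.5 h, 3 were higher under NP on normalized intensity, namely osteoprotegerin by 0.65, periostin by 0.54 and osteopontin by 0.49, while MMP-2 was lower (-0.29) and 3 did not pass the test, beside 44.1% of all analytes called higher. The list median was 0.38, against 0.42 for all analytes, of which 5.41% were called lower. On the reference scale 0 were higher, and MMP-2 (-0.73) and MMP-9 (-0.62) were lower, beside 12.6% and 21.6% of all analytes. The list median was -0.06 on this scale, where DKK-1 and WISP-1 were higher by 0.58 and 1.40. At 2 h 6 of 7 were lower under NP on normalized intensity and 5 of 7 relative to the reference spots, beside 86.5% and 63.1% of all analytes, with list medians of -0.82 and -0.30 against -1.23 and -0.70 for all analytes. PEDF had the lowest of these, at -1.58 and -1.06, and VEGF did not pass the test on either scale. At 16 h 4 were lower and MMP-9, a gelatinase also carried by neutrophils, was higher by 1.59 on normalized intensity, and 1 (periostin, -0.36) was lower and 2 (MMP-9, 2.09, and osteopontin, 0.24) were higher relative to the reference spots. The list medians at 16 h were -0.29 and 0.21, against -0.52 and -0.02 for all analytes, of which 52.3% were called lower on normalized intensity and 17.1% on the reference scale. The shares of all analytes called higher at 16 h were 8.11% and 20.7%.

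Proteins of cells that could add to serum were measured on the same membranes. The 7 analytes released by platelets, which also store DKK-1, summed to 158% to 160% of the reference spots in NP samples at 0.5 h, against 176% to 186% in AP samples. At 2 h they summed to 169% to 200% in NP samples, against 239% to 250% in AP samples, the highest of any group, and at AP 0 h to 104% to 105%. The sum rests on its bright members, and the single analytes were not of one direction at 0.5 h, with 3 higher and 1 lower under NP on normalized intensity (median 0.53, against 0.42 for all analytes) and 1 higher and 2 lower on the reference scale (median 0.10, against -0.02). Of all analytes 44.1% were called higher and 5.41% lower on normalized intensity, and 12.6% and 21.6% on the reference scale. PDGF-BB, a growth factor of platelet granules, was higher under NP at 0.5 h by 3.17 and by 2.74 on the reference scale, as DKK-1 was, and Serpin E1 was lower (-1.60 and -2.04). At 2 h 5 of the 7 were lower under NP on normalized intensity and 3 on the reference scale, beside 86.5% and 63.1% of all analytes. The 6 monocyte and macrophage analytes summed to 30.7% to 33.0% in NP samples at 0.5 h, against 43.5% to 44.3% in AP samples, and to 28.4% to 31.2% in NP samples at 2 h, against 35.9% to 36.2% in AP samples. At 0.5 h 0 of these 6 were called higher under NP on either scale, beside 44.1% of all analytes on normalized intensity and 12.6% on the reference scale. Called lower were 0 on normalized intensity and 2 on the reference scale, beside 5.41% and 21.6% of all analytes. At 2 h 5 were lower and IL-6 was higher on both scales, beside 86.5% and 63.1% of all analytes called lower and 3.6% and 9.91% higher. Only 4 of the 6 were above the negative control in both NP 0.5 h samples and 3 in both NP 2 h samples, where CCL2 was above it in neither. In neither AP 16 h sample were IL-6, IL-1 beta and CD14 above the negative control. The part of these cells in the levels of DKK-1 and WISP-1 was not tested.

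The 4 endothelial analytes summed to 86.9% to 94.8% of the reference spots in NP samples at 0.5 h, against 74.1% to 75.1% in AP samples. At 2 h they summed to 88.1% to 100.1% in NP samples, against 146% to 147% in AP samples, the same directions as DKK-1 at these times. At 16 h the sum was 165% to 173% in NP samples, against 145% to 147% in AP samples, while DKK-1 read lower under NP. On normalized intensity 4 were called higher at 0.5 h and 4 lower at 2 h, beside 44.1% and 86.5% of all analytes. On the reference scale 2 were called higher at 0.5 h, beside 12.6%. At 2 h 3 were lower and E-Selectin was higher on that scale, beside 63.1% and 9.91%. The 3 neutrophil analytes summed to 49.2% to 51.1% in NP samples at 0.5 h, against 68.9% to 72.3% in AP samples, and to 33.0% to 36.3% in NP samples at 2 h, against 46.8% to 49.7% in AP samples. At 16 h the order was the other way, at 34.0% to 37.2% in NP samples, against 18.4% to 19.4% in AP samples. Single analytes did not all follow the sum at 0.5 h. There 1 was called higher under NP on normalized intensity and 1 lower on the reference scale, beside 44.1% and 21.6% of all analytes. Of the 8 plasma proteins that liver and other tissues release constantly, 5 were higher under NP at 0.5 h and 8 were lower at 2 h on normalized intensity, beside 44.1% and 86.5% of all analytes, with medians of 0.42 and -1.25 against 0.42 and -1.23 for all analytes. On the reference scale 0 of the 8 were higher and 2 were lower at 0.5 h, beside 12.6% and 21.6% of all analytes. At 2 h 6 were lower on that scale, beside 63.1%.

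The spots beside DKK-1 and WISP-1 were read for bright neighbours. DKK-1 lies between cystatin C and DPPIV, with complement factor D in the row above and GM-CSF in the row below. The ratio of DKK-1 to cystatin C was 1.04 at NP 0.5 h, against 0.704 at AP 0.5 h, and 1.01 at NP 2 h, against 1.65 at AP 2 h. The ratio of DKK-1 to complement factor D was 0.370 at NP 0.5 h, against 0.193 at AP 0.5 h, and 0.301 at NP 2 h, against 0.458 at AP 2 h. The ratio to DPPIV was 0.641 at NP 0.5 h, against 0.370 at AP 0.5 h, and 0.489 at NP 2 h, against 0.725 at AP 2 h. DKK-1 was thus higher at NP 0.5 h and lower at NP 2 h also relative to these 3 neighbours. Relative to GM-CSF, a dim spot, it was higher under NP at both times, at 49.1 against 22.7 in AP at 0.5 h and at 99.5 against 80.5 in AP at 2 h. GM-CSF averaged 30.3 at NP 2 h, where the negative controls were 61.9 and 24, so that no direction can be read from this ratio at 2 h. WISP-1 lies beside VEGF, which had a lower group mean than WISP-1 in all 7 groups, and the ratio of WISP-1 to VEGF was 6.31 at NP 0.5 h, against 2.38 at AP 0.5 h, and 2.59 at NP 2 h, against 3.94 at AP 2 h. Resistin in the row above was far brighter, with WISP-1 between 0.0131 and 0.0610 times its level, and its part in the WISP-1 signal was not tested.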

How the data were processed

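Serum of 14 samples in 7 groups of 2 was measured on mouse cytokine array membranes. The authors quantified the raw intensity of each spot with ImageJ, and the normalized intensity deposited by the authors is the raw value times a factor for each sample (0.859 to 1), the smaller of 1 and the ratio of its partner's mean reference level to its own. Recomputed, raw intensity times the factor differed from the deposited values by at most 4.75e-06 (relative), and the deposited series table equalled the normalized columns. Whether background was subtracted is not given in the sources used here. The 14 columns of the authors' fold changes over AP 0 h were not used. A gene symbol was found through Entrez for 111 of 111 analytes. The median difference between both samples of a group was 8.07% to 19.2%, and no pair was identical.

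Log2 normalized intensity was fitted with limma 3.58.1 in R 4.3.3 (lmFit, eBayes with a trend) over all 14 samples without a block, with Benjamini-Hochberg adjustment over 111 analytes and a threshold of 0.05. The same fit was run on raw intensity over the mean reference spots. The array and its number of samples limit the precision, and no depth applies. Alternatives were the raw intensities, median scaling, quantile normalization, a plane through the reference spots, subtraction of the negative control (floor 10, 164 values), limma without its trend, removal of the dimmest 0.25 of the analytes, fits restricted to the groups compared, a replicate block, each sample left out, and the t-test named in the methods. The code was tested on simulated data. Figures were drawn with matplotlib 3.10.9 in Python 3.11.15, from tables made with numpy 2.4.6 and pandas 2.3.3. The analytes named were DKK-1 and WISP-1, the 3 analytes with the highest r to each, the spots beside them and the members of 6 lists. DKK-1, WISP-1, the lists and the tests were chosen with earlier results of these data known.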

Additional observations from a re-analysis of the deposited data

Results flagged for a closer look

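The change between times differed between the pressures for both proteins, by the test of the difference itself on normalized intensity. For DKK-1 from 0.5 to 2 h, the NP step minus the AP step was -2.82 on the log2 scale (limma, adjusted p = 9.13e-11). For WISP-1 from 0.5 to 2 h it was -2.72 (adjusted p = 7.66e-05). For DKK-1 from 2 to 16 h it was 1.11 (adjusted p = 3.63e-06). In these comparisons 84.7% of all analytes were called lower and 51.4% called higher, so that most analytes moved in the same direction. Relative to the reference spots the signs and calls of these values were kept. After median scaling the values of both proteins from 0.5 to 2 h turned positive and did not pass the test. The DKK-1 value from 2 to 16 h turned negative on that scale and passed it. Groups of 2 samples allow no test for a single sample that stands apart.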

How the results depend on the processing

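The 30 values of the comparisons kept their direction and their side of the threshold with the raw intensities, without the trend and with the lowest 0.25 of the analytes left out. The fit of only the groups compared changed 1, WISP-1 at NP 16 h against NP 2 h (-1.14, adjusted p = 0.0582). With limma and the replicate number as a block, no call changed, and DKK-1 at 0.5 h stood at 1.02 (adjusted p = 7.31e-06) and WISP-1 at 2 h at -0.89 (adjusted p = 0.0272). No source ties a replicate number to a shared experiment, and the deviations of same-numbered samples correlated between -0.18 and 0.505 over 21 pairs of groups (median 0.184), with 14 above 0.1 but not all, so that the numbers were not taken as pairing the samples. The t-test named in the methods called 50, 79 and 59 analytes at 0.5, 2 and 16 h unadjusted and 21, 68 and 49 after Benjamini-Hochberg adjustment, and limma called 55, 100 and 67. It lost WISP-1 at 2 h, where the log2 ratio of the means was -0.83, and after adjustment also DKK-1 at 0.5 h (0.0555). In all cases below, the cause was not tested.

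Relative to the reference spots, NP against AP was -0.36 for WISP-1 at 2 h, and -0.20 for DKK-1 and -0.58 for WISP-1 at 16 h, none past the threshold. WISP-1 also missed it in the last steps, at -0.54 in AP and -0.76 in NP. Against AP 0 h the values turned to 0.45, 1.81, 0.22, 1.04, 0.54 and 0.022 for DKK-1 at AP 0.5, 2 and 16 h and NP 0.5, 2 and 16 h, and were 0.75, 1.65, 1.11, 2.15, 1.29 and 0.53 for WISP-1. Scaled to the plane they were 0.62, 2.00, 0.26, 1.06, 0.60 and 0.10 for DKK-1 and 2.51, 2.60, 0.90, 2.05, 0.67 and 0.28 for WISP-1. The plane also gave -0.46 for WISP-1 in NP against AP at 0.5 h, -0.16 for DKK-1 and -0.62 for WISP-1 at 16 h, 0.086 and -0.39 for WISP-1 in the first AP and the last NP step, and 1.30 for WISP-1 in the NP minus AP step from 2 to 16 h.

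Median scaling gave NP against AP as 0.026 for DKK-1 and 0.84 for WISP-1 at 0.5 h and 0.077 and 0.99 at 2 h. The AP steps were 0.25 and -0.21 from 0.5 to 2 h and 0.31 and 1.37 from 2 to 16 h for DKK-1 and WISP-1, the first NP step was 0.30 and -0.059, and the NP minus AP steps were 0.051 and 0.15, then -1.31 and -2.61. Against AP 0 h WISP-1 was -1.50 and -0.14 at AP 2 and 16 h and -0.46 and -0.52 at NP 0.5 and 2 h. Quantile normalization gave for WISP-1 0.80 in NP against AP at 2 h, 0.69 and 0.45 in the AP steps, 0.028 in the first NP step and -0.67 and -1.91 in the NP minus AP steps, and for DKK-1 0.10 in the last of these. Against AP 0 h it gave 0.54 for DKK-1 at AP 2 h and, under NP, 0.39 after 0.5 h and -0.26 after 2 h, and -0.91 and -0.46 at AP 2 and 16 h and -0.14 and -0.11 at NP 0.5 and 2 h for WISP-1. With the negative control subtracted, WISP-1 was 1.91, -1.05 and 0.76 in NP against AP at 0.5, 2 and 16 h, -1.73 at AP 0.5 h and -1.72 at NP 2 h against AP 0 h, 1.06 in the first AP step and 1.81 in the last NP minus AP step. The values of 0.76 and 1.81 rest on AP 16 h replicate 2, which was set to the floor. The ratio of DKK-1 to WISP-1 then was 8.67 at NP 0.5 h and 16.1 at AP 0.5 h, while at AP 16 h it rested on a value set to the floor and is not given, and on the plane 15.6 at NP 2 h and 4.19, 10.6 and 9.94 at AP 0.5, 2 and 16 h.

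With each sample left out in turn, no DKK-1 call changed. WISP-1 ranged from -1.36 to -0.41 at 2 h and from -1.22 to -0.93 at 16 h in NP against AP, from 0.72 to 1.23 and from -1.21 to -0.70 in the AP steps, from -1.62 to -0.67 in the last NP step and from -0.67 to 0.29 in the last NP minus AP step. The signal over background limits WISP-1 at 16 h, where readings were 0.986 to 1.92 times the negative control. With 2 samples a group, a lone sample is assumed to vary like the other groups.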
